A study of Rattus norvegicus with 13 samples.

Results

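The thin filament of the left ventricle was followed in late-pregnant rats through 8 genes, the tropomyosins Tpm1, Tpm2, Tpm3 and Tpm4, the cardiac troponins Tnnt2, Tnni3 and Tnnc1, and Actn2, which encodes alpha-actinin 2. All probe sets, groups of short probes that together read a transcript on an Affymetrix array, whose single gene symbol was one of these were taken. This gave 28 of the 31042 probe sets tested, and 8 of 14217 genes. Tpm3 was read by 12 probe sets, Tpm1 by 7, Tpm2, Tpm4 and Tnnt2 by 2 each, and Tnni3, Tnnc1 and Actn2 by 1 each. All 13 arrays came from the left ventricle of pregnant female Sprague-Dawley rats, with 1 array per sample as labelled. The 4 L-NAME samples were from rats that drank L-NAME, which blocks the NO synthases, at 1 g/L, the 4 Met-fed samples from rats that drank methionine at 9 g/L, and the 5 control samples from rats given water alone. Treatment covered pregnancy days 1 through 20, hearts were taken on day 20 or 21, and the labels give neither age nor parity. The study's methods describe rats that had been pregnant before, with methionine given from the first pregnancy on, and fewer control arrays than the labels list, so how often the rats of these arrays had been pregnant, and for how long they had been fed methionine, is not settled. Nothing in the labels says more of the samples of a group than that they are separate samples, so p-values measure the spread between these samples, and the number of arrays limits the precision. The values are signals of MAS5, the manufacturer's algorithm, given here on the log2 scale, where a difference of 1 is a doubling.

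In striated muscle the thin filament is a polymer of actin with tropomyosin lying along it and a troponin complex at regular intervals. Troponin T ties the complex to tropomyosin, troponin I holds the filament in its inhibited state, and troponin C binds calcium, after which tropomyosin moves and myosin can reach actin. Alpha-actinin 2 crosslinks the thin filaments at the Z-disc. Tpm1 encodes the main tropomyosin of the rodent ventricle and, through alternative promoters and splicing, also tropomyosins of smooth muscle and of the cytoskeleton. Tpm2 encodes beta-tropomyosin, Tpm3 slow skeletal muscle and cytoskeletal forms, and Tpm4 cytoskeletal forms. Which exons each probe set reads is not given in the sources used here. Names ending in _a_at mark probe sets that read several transcripts of a gene, those in _s_at transcripts of several genes, and those in _x_at contain probes similar to other sequences. The tropomyosin genes are close relatives, so the assignment of signal to a single gene is uncertain for the _s_at and _x_at probe sets of Tpm1 and Tpm3.

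RefSeq promoter windows of the GRCr8 build, from 250 bases before to 50 bases after a gene's start, were found for 7 of the 8 genes, all but Tnnc1, and gave 10 windows because Tpm3 has 3 and Tnnt2 has 2. The windows below are of genes on which the results turn, 1 for each gene with a motif known from muscle promoters in a window, with the motif in capitals. For Tpm3 and Tnnt2 the window with the most matches is shown. Both strands were searched for the M-CAT motif (CATTCC), an E-box (CAGCTG, the same on both strands), the GATA motif (AGATAA), the CArG box and the MEF2 site. The matches printed do not overlap each other.
Tpm1, chr8:76543366-76543665, minus strand: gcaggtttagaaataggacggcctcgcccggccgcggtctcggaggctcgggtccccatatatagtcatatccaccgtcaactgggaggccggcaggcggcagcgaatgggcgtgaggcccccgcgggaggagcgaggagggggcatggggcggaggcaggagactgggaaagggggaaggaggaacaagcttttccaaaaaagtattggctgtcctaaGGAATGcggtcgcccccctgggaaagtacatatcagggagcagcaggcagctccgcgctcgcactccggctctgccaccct
Tpm3, chr2:177814633-177814932, plus strand: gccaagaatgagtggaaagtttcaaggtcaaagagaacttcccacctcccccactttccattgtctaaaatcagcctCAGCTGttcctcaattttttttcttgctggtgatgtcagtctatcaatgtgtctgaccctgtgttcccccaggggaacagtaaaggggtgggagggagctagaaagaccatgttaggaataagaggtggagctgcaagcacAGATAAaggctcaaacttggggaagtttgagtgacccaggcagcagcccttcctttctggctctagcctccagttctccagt
Tpm4, chr16:17732434-17732733, minus strand: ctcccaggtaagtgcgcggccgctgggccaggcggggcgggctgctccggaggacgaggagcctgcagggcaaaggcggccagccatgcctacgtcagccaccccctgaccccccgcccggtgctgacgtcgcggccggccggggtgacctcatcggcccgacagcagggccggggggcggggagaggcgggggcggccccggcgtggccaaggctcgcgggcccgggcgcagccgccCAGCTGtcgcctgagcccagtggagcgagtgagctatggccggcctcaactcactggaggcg
Tnnt2, chr13:49818873-49819172, plus strand: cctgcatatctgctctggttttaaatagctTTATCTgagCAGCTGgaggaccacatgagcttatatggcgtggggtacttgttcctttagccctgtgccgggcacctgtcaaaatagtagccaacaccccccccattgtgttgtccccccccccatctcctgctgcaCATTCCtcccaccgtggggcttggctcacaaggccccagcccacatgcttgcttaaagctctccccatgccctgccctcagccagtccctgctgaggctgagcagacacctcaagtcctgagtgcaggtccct
Tnni3, chr1:78342321-78342620, plus strand: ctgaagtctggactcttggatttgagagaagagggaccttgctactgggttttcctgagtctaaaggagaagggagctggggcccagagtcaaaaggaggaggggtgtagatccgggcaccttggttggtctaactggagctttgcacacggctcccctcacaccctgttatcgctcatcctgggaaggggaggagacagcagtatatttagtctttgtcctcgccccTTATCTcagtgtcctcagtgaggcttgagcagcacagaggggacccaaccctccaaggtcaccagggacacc
In these windows the M-CAT motif stood 31 bases before the start of Tpm1, on the opposite strand, and 83 bases before that of Tnnt2. An E-box lay 12 bases before the start of Tpm4, 173 before that of Tpm3 and 211 before that of Tnnt2. A GATA motif lay 32 bases before the start of Tpm3 and, on the opposite strand, 22 bases before that of Tnni3 and 220 before that of Tnnt2. The M-CAT motif was found in 2 of the 10 windows, against 14.2% of all 33469 windows, the E-box in 5, against 15.1%, and the GATA motif in 3, against 11.6%. The 5 windows with an E-box held 4 distinct sites, since the other two Tpm3 windows overlap and share 1. The CArG box and the MEF2 site, present in 1.64% and 3.29% of all windows, had 0 matches in the 10. A match is a description of the letters and not of a bound site.

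In L-NAME hearts 23 of the 28 probe sets differed from control at an adjusted p under 0.05 (limma, Benjamini-Hochberg over all probe sets), 13 higher and 10 lower, while in Met-fed hearts 0 differed. Over all probe sets 28.7% were called higher and 17.0% lower in L-NAME hearts, so that calls were frequent throughout the array. The L-NAME and control arrays did not overlap in 22 of the 28 probe sets, against 40.3% of all probe sets. As deposited, the probe sets of highest signal of Tpm1, Tpm3, Tnnt2, Tnni3, Tnnc1 and Actn2 were lower in L-NAME hearts, and dimmer probe sets of the tropomyosins were higher. The median log2 change of the 28 was 0.17 in L-NAME hearts, against 0.22 for all probe sets. In whole ventricle, fewer cells of a type and less RNA per cell cannot be told apart.

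As deposited, Tpm1 was represented by probe sets that moved in opposite directions. The probe set of highest signal, 1371241_x_at, had log2 signals of 11.29, 11.43, 11.61 and 11.41 in L-NAME hearts, 11.68, 12.09, 12.07 and 11.79 in Met-fed hearts and 12.05, 11.98, 11.83, 12.04 and 12.02 in control hearts. Each L-NAME array lay under every Met-fed and control array, and the Met-fed arrays spanned the control range. The log2 change was -0.55 ± 0.09 in L-NAME against control hearts (SE here and below, a fold of 0.685, adjusted p = 9.12e-05 in limma). After quantile normalization, which gives every array the same distribution of signals, the change was 0.03 and was not called. Probe set 1395794_at, at a lower signal, had 9.13, 8.88, 8.54 and 8.64 in L-NAME hearts, 7.73, 7.80, 8.01 and 7.33 in Met-fed hearts and 7.59, 7.59, 7.25, 7.38 and 7.54 in control hearts. Here every L-NAME array lay above all the others, with a change of 1.33 ± 0.14 (fold 2.51, adjusted p = 1.7e-06 in limma).

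Of the 5 further Tpm1 probe sets, 3 were lower in L-NAME than in control hearts, 1 was higher and 1, at low signal, was not called. Probe set 1368724_a_at had 11.28, 11.53, 11.53 and 11.40 in L-NAME hearts, 11.62, 12.04, 12.05 and 11.86 in Met-fed hearts and 12.03, 11.97, 11.88, 12.03 and 12.04 in control hearts. Probe set 1370288_a_at had 11.39, 11.52, 11.65 and 11.57 in L-NAME hearts, 11.53, 11.96, 11.94 and 11.68 in Met-fed hearts and 11.84, 11.85, 11.72, 11.86 and 11.80 in control hearts. Probe set 1371240_at had 11.14, 10.84, 11.41 and 11.27 in L-NAME hearts, 11.42, 11.87, 11.89 and 11.62 in Met-fed hearts and 11.81, 11.81, 11.76, 11.80 and 11.83 in control hearts. In these 3 probe sets the L-NAME arrays lay under all control arrays without overlap, and in 1370288_a_at they overlapped with the Met-fed arrays. Their changes in L-NAME against control hearts were -0.55 ± 0.09, -0.28 ± 0.08 and -0.64 ± 0.11, with adjusted p of 5.42e-05, 0.011 and 0.000125 in limma. The call of 1370288_a_at was lost when the variance was fitted without its trend on the signal. With quantile normalization 1370288_a_at was called higher (0.27, adjusted p = 5.86e-05 in limma), and 1368724_a_at (0.016) and 1371240_at (-0.12) were not called. Probe set 1370287_a_at moved with 1395794_at and had 8.60, 8.33, 8.72 and 9.01 in L-NAME hearts, 8.06, 7.72, 8.22 and 8.11 in Met-fed hearts and 8.10, 7.43, 7.80, 7.76 and 7.98 in control hearts. It was higher on every L-NAME array than on any other array, by 0.85 ± 0.15 (adjusted p = 0.000212 in limma). Probe set 1370513_at exceeded the highest bacterial control probe set, which no rat transcript should bind, on 9 of the 13 arrays, and its signals ranged over 1.50 to 2.30 in L-NAME, 2.04 to 2.64 in Met-fed and 1.16 to 2.46 in control hearts, with overlap between all groups.

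**Figure D1:**
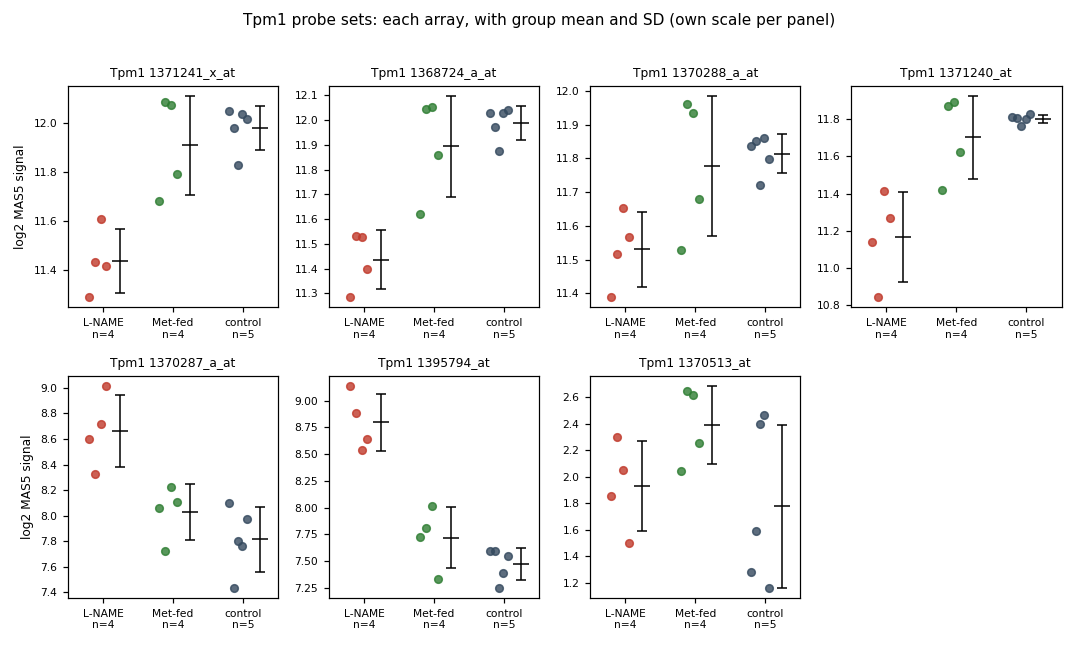
Log2 MAS5 signal of the 7 Tpm1 probe sets on each array, with a separate vertical scale per panel. Points are arrays of the L-NAME (n = 4), Met-fed (n = 4) and control (n = 5) groups, and bars are the mean and SD of each group. As deposited, the 4 probe sets of highest signal are lower on the L-NAME than on the control arrays, and 1370287_a_at and 1395794_at are higher.

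The disagreement within a gene was tested on each array as the log2 signal of a further probe set minus that of the gene's probe set of highest signal. This difference is not moved when an array is scaled by a constant, but a shift that depends on the signal level moves it. Among the 20 such pairs of the 8 genes, 14 changed in L-NAME against control hearts (limma, adjusted over 6609 pairs of 4525 genes), all toward the further probe set. Of all pairs 51.8% were called, and 43.5% were called toward the further probe set. The median change of the difference was 1.63 over the 20 pairs and 0.69 over all pairs. These 20 were not matched to all pairs by signal level. The brightest probe sets of Tpm1, Tpm3 and Tnnt2 had a mean log2 signal of 11 or more. At that level the median change of all probe sets was -0.52, against 0.42 under a signal of 5. Whether the 20 pairs differ from pairs of like levels was not tested. In Tpm1 the difference of 1395794_at from 1371241_x_at changed by 1.87 ± 0.18 (adjusted p = 6.87e-06 in limma), that of 1370287_a_at by 1.40 ± 0.20 (adjusted p = 0.000115) and that of 1370288_a_at by 0.26 ± 0.09 (adjusted p = 0.0297). For 1368724_a_at and 1371240_at the values were -0.0069 ± 0.094 (95% interval -0.21 to 0.20) and -0.09 ± 0.12 (-0.35 to 0.17), so that these 2 moved within those limits of the first. With quantile normalization 16 pairs were called, 13 of them toward the further probe set, and the share of all pairs called under it was not computed. In Met-fed hearts 0 of the 20 pairs and 0% of all pairs were called in limma, with 3 of the 20 at an unadjusted p under 0.05, and the methods' t-test also called 0 of the 20 after adjustment.

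Tpm3, read by 12 of the 28 probe sets and so by the most, held the largest number of probe sets that rose. Its brightest, 1387617_at, had 11.25, 11.32, 11.35 and 11.34 in L-NAME hearts, 11.76, 12.07, 12.00 and 11.92 in Met-fed hearts and 11.98, 12.14, 11.93, 12.12 and 12.14 in control hearts. The L-NAME arrays lay closely together and under all others, at a change of -0.75 ± 0.07 (adjusted p = 3.6e-07 in limma). The next, 1383986_at, had 9.81, 9.91, 10.02 and 10.08 in L-NAME hearts, 10.62, 10.62, 10.65 and 10.68 in Met-fed hearts and 10.68, 10.63, 10.63, 10.66 and 10.74 in control hearts. It was lower on every L-NAME array, with a log2 change of -0.71 ± 0.06 (adjusted p = 2.59e-07 in limma), while the Met-fed and control arrays shared the same narrow range. These 2 moved alike, with a difference of changes of 0.03 ± 0.11 (95% interval -0.21 to 0.27).

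Of the other 10 Tpm3 probe sets 8 rose in L-NAME hearts, by log2 changes of 0.63 to 1.75 (adjusted p of 1.65e-06 to 0.00485 in limma), and for each of the 8 the L-NAME and control arrays did not overlap. Over all probe sets 28.7% were called higher, and 40.3% had L-NAME and control arrays without overlap. The median change of all probe sets with a mean log2 signal under 5 was 0.42. Probe set 1371239_s_at, with the largest rise, had signals of 5.86 to 6.01 in L-NAME, 4.35 to 4.68 in Met-fed and 3.86 to 4.69 in control hearts. Probe set 1371184_x_at lay at 4.38 to 4.90 in L-NAME, 1.93 to 3.26 in Met-fed and 2.17 to 3.38 in control hearts, with a change of 1.74 ± 0.34, and 1387918_at at 5.02 to 5.69 in L-NAME, 3.25 to 4.11 in Met-fed and 2.92 to 4.23 in control hearts, with a change of 1.68 ± 0.30. Averaged over the 13 arrays, all 3 lay under the median of all probe sets, a log2 signal of 4.87, although 1371239_s_at lay above it on every L-NAME array, and all 3 were above the bacterial controls on all 13 arrays. At a higher signal, 1389846_at ranged over 7.29 to 7.59 in L-NAME, 6.03 to 6.88 in Met-fed and 5.81 to 6.59 in control hearts and rose by 1.19 ± 0.18, and 1370339_at ranged over 8.63 to 9.04 in L-NAME, 8.36 to 8.71 in Met-fed and 7.91 to 8.50 in control hearts and rose by 0.63 ± 0.12. The rise of 1370339_at was 0.21 (adjusted p = 0.155 in limma) after array median centring. Probe sets 1376929_at and 1370450_at had changes of 0.03 ± 0.27 and -1.14 ± 0.54 and were not called. Probe set 1370450_at was above the bacterial controls on 8 of the 13 arrays, 2 of 4 in the L-NAME group. It was called lower under array median centring (-1.57, adjusted p = 0.0244 in limma), quantile normalization (-1.57, adjusted p = 0.0267), offsets of 16 and 50 (adjusted p = 0.0436 and 0.0424) and, at -1.47, without control replicate 4. Of the 11 differences from 1387617_at, 9 were called, the largest 2.49 ± 0.18 for 1371239_s_at (adjusted p = 1.12e-06 in limma).

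**Figure D2:**
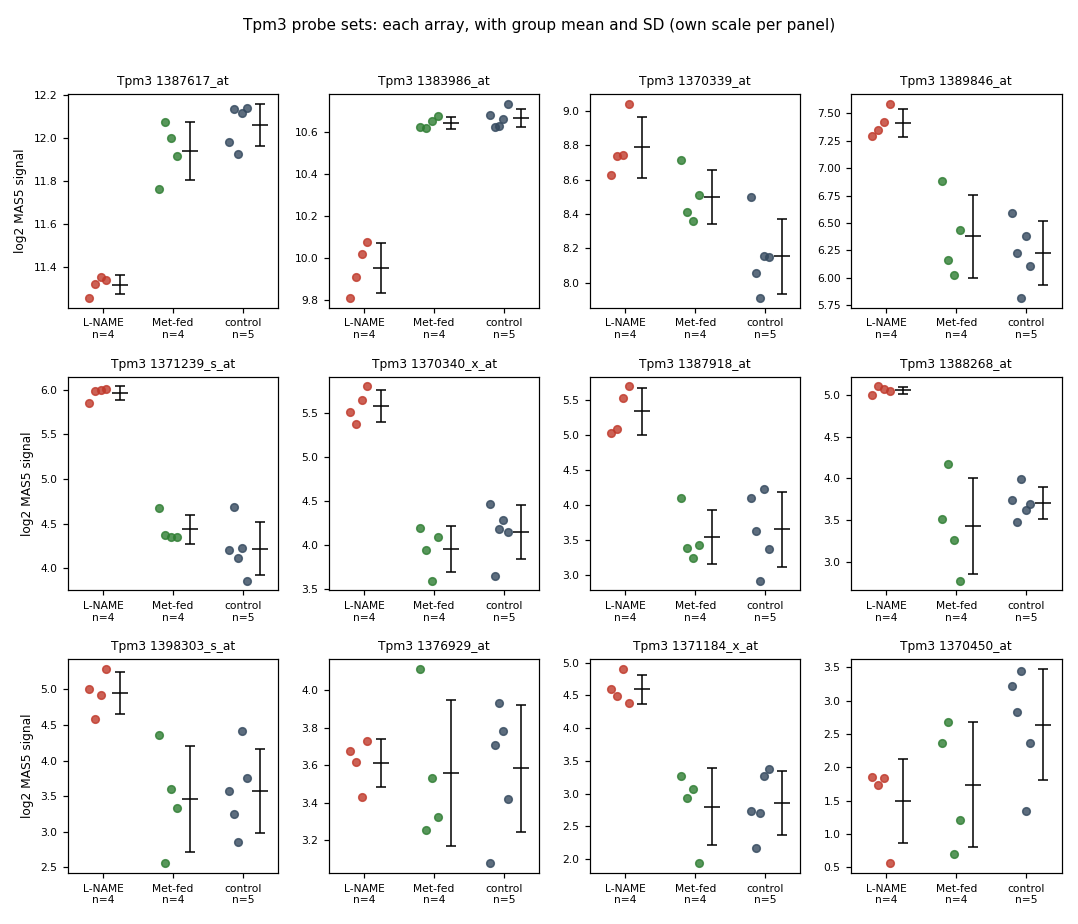
Log2 MAS5 signal of the 12 Tpm3 probe sets on each array, with a separate vertical scale per panel. Points are arrays of the L-NAME (n = 4), Met-fed (n = 4) and control (n = 5) groups, and bars are the mean and SD of each group. The 2 probe sets of highest signal are lower on all L-NAME arrays, while 8 of the others are higher than on all control arrays.

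Tpm4 and Tpm2 were not lower in L-NAME hearts in any probe set called. For Tpm4 the brighter probe set, 1371653_at, had 9.99, 10.02, 10.22 and 10.22 in L-NAME hearts, 9.98, 9.95, 9.95 and 10.10 in Met-fed hearts and 10.05, 9.68, 9.88, 10.10 and 9.94 in control hearts. The groups overlapped, and the change of 0.18 ± 0.09 was not called (95% interval -0.0054 to 0.37, adjusted p = 0.107 in limma). Its direction depended on the scaling, with -0.24 after array median centring and 0.38 (called) after quantile normalization. The other, 1368838_at, had 8.44, 8.34, 8.73 and 8.67 in L-NAME hearts, 6.76, 6.12, 5.92 and 6.63 in Met-fed hearts and 6.30, 6.19, 6.00, 6.61 and 5.62 in control hearts. Every L-NAME array exceeded every other array, and the change of 2.40 ± 0.20, a fold of 5.28 (adjusted p = 1.17e-07 in limma), had the smallest p of the 28 probe sets. The difference between the 2 changed by 2.22 ± 0.20 (adjusted p = 5.2e-06 in limma). For Tpm2, 1372219_at had 9.07, 8.86, 9.37 and 9.97 in L-NAME hearts, 8.97, 8.19, 8.46 and 8.99 in Met-fed hearts and 8.91, 8.20, 8.58, 8.43 and 8.51 in control hearts. L-NAME replicate 2 lay within the control range, and the change was 0.79 ± 0.21 (adjusted p = 0.00542 in limma) as deposited but 0.37 (adjusted p = 0.158) after array median centring. Its dimmer probe set 1392976_at had 4.08, 4.22, 4.50 and 6.71 in L-NAME hearts, 4.80, 3.10, 3.74 and 4.92 in Met-fed hearts and 4.06, 4.80, 5.05, 4.83 and 5.80 in control hearts, where L-NAME replicate 4 stood apart, and the change of -0.03 ± 0.51 was not called.

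The 3 cardiac troponins and alpha-actinin 2 were lower in L-NAME hearts in the probe sets of high signal. Tnnt2, troponin T, had in 1367592_at 11.34, 11.51, 11.59 and 11.45 in L-NAME hearts, 11.68, 12.12, 12.23 and 11.81 in Met-fed hearts and 12.14, 11.94, 11.89, 12.04 and 11.92 in control hearts. Tnni3, troponin I, had in 1386931_at 11.06, 11.15, 11.29 and 11.19 in L-NAME hearts, 11.55, 11.92, 12.01 and 11.53 in Met-fed hearts and 11.93, 11.77, 11.75, 11.73 and 11.79 in control hearts. Tnnc1, troponin C, had in 1371354_at 11.13, 11.26, 11.39 and 11.24 in L-NAME hearts, 11.41, 11.81, 11.71 and 11.55 in Met-fed hearts and 11.76, 11.60, 11.60, 11.60 and 11.57 in control hearts. In each the L-NAME arrays lay under all Met-fed and control arrays, and the Met-fed arrays varied more among themselves than the control arrays. The changes in L-NAME against control hearts were -0.51 ± 0.10 for Tnnt2, -0.62 ± 0.09 for Tnni3 and -0.37 ± 0.08 for Tnnc1 (adjusted p = 0.000434, 4.49e-05 and 0.00117 in limma). With quantile normalization Tnnt2 (0.04) and Tnni3 (-0.11) were not called and Tnnc1 was called higher (0.13, adjusted p = 0.039 in limma). Actn2 had in 1372595_at 10.49, 10.59, 10.74 and 10.64 in L-NAME hearts, 10.93, 11.46, 11.39 and 11.20 in Met-fed hearts and 11.35, 11.30, 11.26, 11.33 and 11.42 in control hearts. It was lower on every L-NAME array, with a change of -0.72 ± 0.09, a fold of 0.607 (adjusted p = 9.18e-06 in limma).

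Tnnt2 had a second probe set, 1390061_at, that moved the other way at a low signal. Its values were 4.41, 4.30, 4.60 and 3.41 in L-NAME hearts, 3.11, 3.53, 2.29 and 2.99 in Met-fed hearts and 1.24, 2.18, -0.29, 2.00 and 2.26 in control hearts. Every L-NAME and every Met-fed array lay above all control arrays, and 1390061_at exceeded the bacterial controls on 4 of 4 L-NAME, 4 of 4 Met-fed and 2 of 5 control arrays. The change was 2.70 ± 0.50 in L-NAME hearts as fitted (adjusted p = 0.00028 in limma), but its size is not settled, since 3 of the 5 control arrays were not above the bacterial controls.

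**Figure D3:**
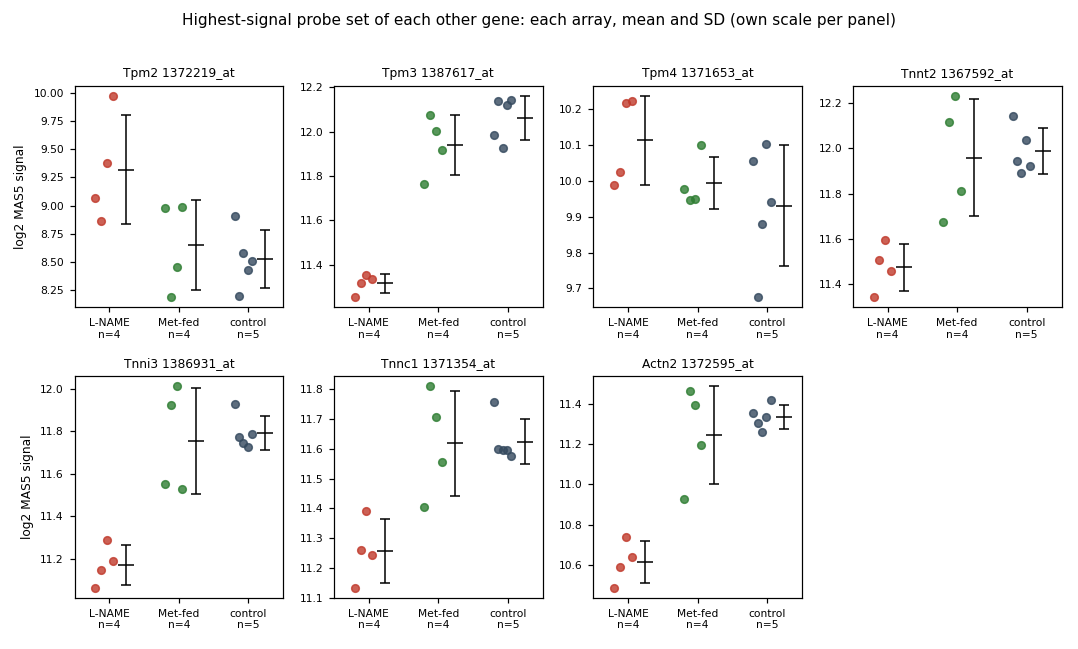
Log2 MAS5 signal on each array of the probe set of highest signal of Tpm2, Tpm3, Tpm4, Tnnt2, Tnni3, Tnnc1 and Actn2, with a separate vertical scale per panel. Points are arrays of the L-NAME (n = 4), Met-fed (n = 4) and control (n = 5) groups, and bars are the mean and SD. The L-NAME arrays lie under all control arrays for Tpm3, Tnnt2, Tnni3, Tnnc1 and Actn2 and overlap with them for Tpm2 and Tpm4.

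Higher and lower calls were divided by level. The 9 probe sets with a mean log2 signal of 11 or more, which read Tpm1, Tpm3, Tnnt2, Tnni3, Tnnc1 and Actn2, were all called lower in L-NAME hearts, with changes of -0.28 to -0.75. Of all 319 probe sets at this level 95.9% were below 0, with a median change of -0.52. Between log2 signals of 8 and 11 the median of all 5557 probe sets was -0.10, and 3 of the 5 members were called higher and 1 lower. Between 5 and 8 it was 0.24 over 9255 probe sets, and all 3 members were called higher. Under 5 it was 0.42 over 15911 probe sets, and of the 11 members 7 were called higher and 0 lower. Between 8 and 11, 57% of all probe sets were below 0, against 1 of the 5 members. Between 5 and 8 it was 39%, against 0 of 3, and under 5 it was 35%, against 2 of 11. The share of all probe sets called in each class was not computed, so the counts of calls have no share to stand against. The called members of each class thus lay on the side of 0 of the median of all probe sets of their level, except in the class of 8 to 11.

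**Figure D4:**
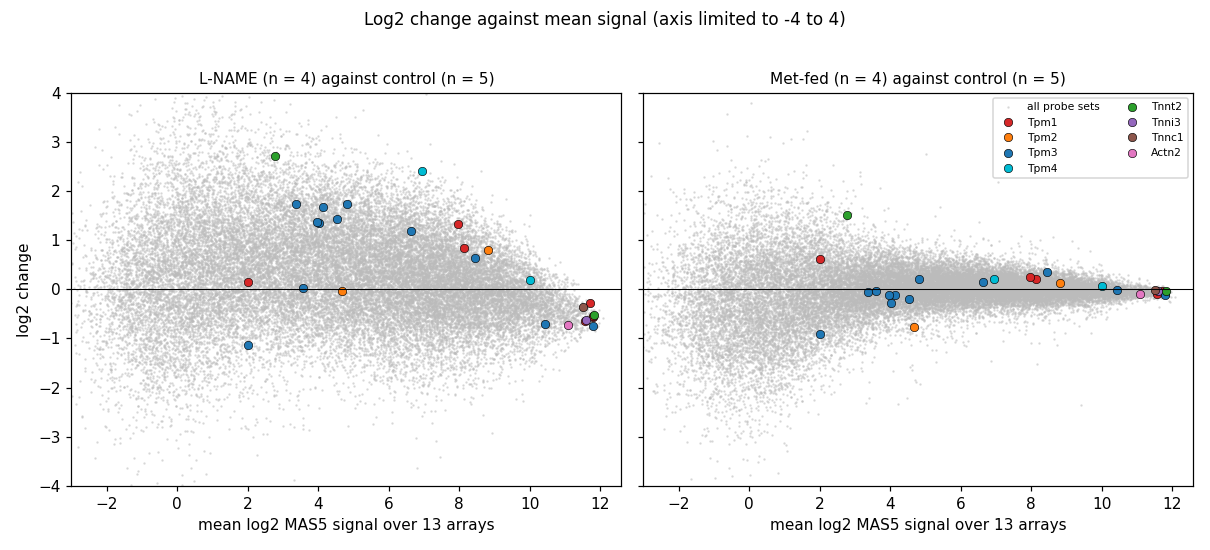
Log2 change of each probe set in L-NAME against control (left) and Met-fed against control (right) on the vertical axis, against its mean log2 MAS5 signal over the 13 arrays on the horizontal axis. Grey points are all probe sets (101 left and 53 right lie outside the axes) and coloured points are the 28 probe sets by gene. In L-NAME hearts the grey points bend from above 0 at low signal to a median of -0.52 at signals of 11 or more, where 9 of the coloured points lie.

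The arrays of the groups also differed as a whole. Median signals were 34.2 to 36.9 in L-NAME, 25.8 to 29.2 in Met-fed and 25.7 to 27.2 in control samples, and the highest signal of any probe set was 3093 to 3547, 3971 to 5501 and 4782 to 5531 in the same order. The log2 ratio of 3′ to 5′ signal, which reflects RNA integrity and labelling, was 2.48 ± 0.16 (SD, n = 4) on L-NAME, 3.53 ± 0.17 (SD, n = 4) on Met-fed and 3.47 ± 0.14 (SD, n = 5) on control arrays for beta-actin. For Gapdh it was 0.56 ± 0.09, 1.12 ± 0.15 and 1.18 ± 0.11 (SD, same arrays). In both, the L-NAME arrays lay under all control arrays (exact permutation test, 2-sided, p = 0.00794, the smallest that 4 against 5 arrays allow). Both these ratios and the differences between probe sets of a gene thus differed between L-NAME and control arrays. Whether they are related was not tested. Among the arrays 0 shared identical values, and the highest correlation between 2 arrays was 0.9615.

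Under quantile normalization most of the bright probe sets were not called lower. Of the 9, 4 were below 0, 2 were called lower (Tpm3 1387617_at at -0.18 and Actn2 at -0.34) and 2 were called higher (Tpm1 1370288_a_at at 0.27 and Tnnc1 at 0.13), in a range of -0.34 to 0.27. The brightest Tpm1 probe set had 0.03 and the bright Tnnt2 probe set 0.04, while Tnni3 had -0.11, and none of these 3 was called. Over the 28 probe sets the calls were 16 higher and 4 lower, so 80% of the calls were higher, against 56.5% as deposited. The shares of all probe sets called under quantile normalization or array median centring were not computed. With array median centring, which lowered the median of all probe sets to -0.21 against 0.22 as deposited, the calls were 11 higher and 11 lower (50%) and the 9 bright probe sets were all called lower, with changes of -0.71 to -1.17. In all 3 scalings 14 probe sets were called in the same direction, and the share of all probe sets called so was not computed. The 3 lower ones were Tpm3 1387617_at, Tpm3 1383986_at and Actn2. The 11 higher ones were Tpm1 1370287_a_at and 1395794_at, Tpm4 1368838_at, Tnnt2 1390061_at and 7 of Tpm3.

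**Figure D5:**
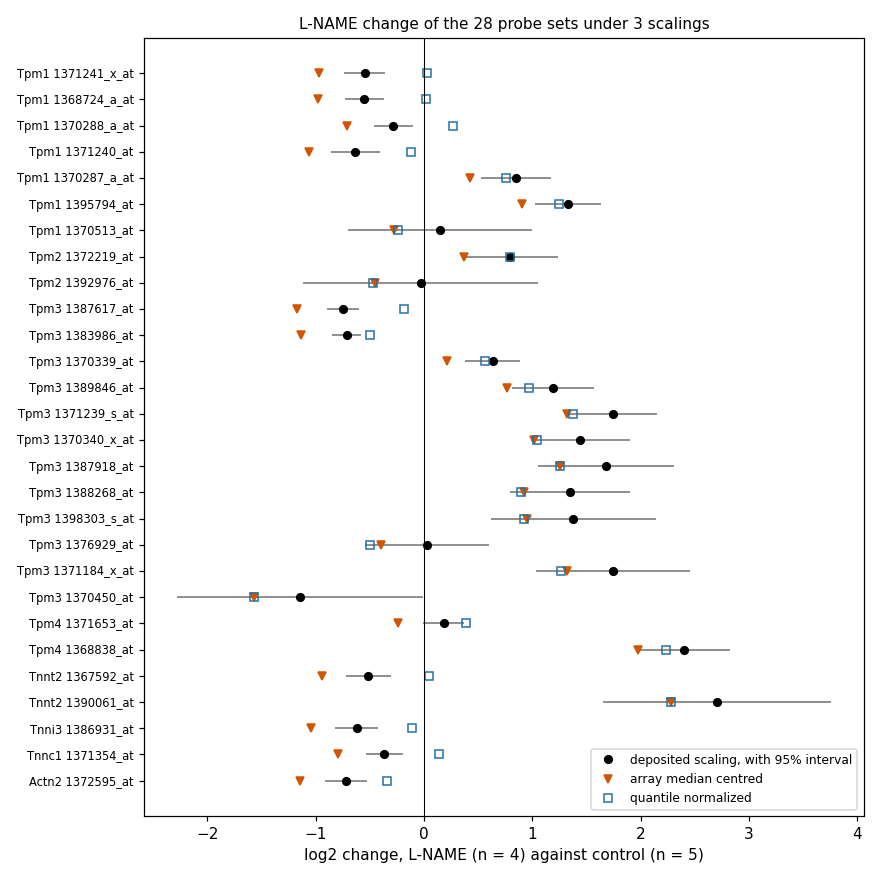
Log2 change in L-NAME (n = 4) against control (n = 5) hearts of the 28 probe sets (rows) under 3 scalings, with circles for the deposited values and their 95% interval, triangles for array median centring and squares for quantile normalization. The squares of the bright probe sets of Tpm1, Tnnt2, Tnni3 and Tnnc1 lie near 0 or above it, while 14 probe sets are called on the same side in all 3 scalings. The share of all probe sets called so was not computed.

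Methionine feeding was compared with control for the same probe sets, to ask whether the thin filament genes differ in the ventricle of rats fed methionine to raise homocysteine. In limma 0 of the 28 passed an adjusted p of 0.05, as did 0% of all probe sets, and adjusted p ranged from 0.33 to 0.989. At an unadjusted p under 0.05 there were 2, against 10.7% of all probe sets, and the methods' t-test gave 2 unadjusted and 0 adjusted. These 2 were Tnnt2 1390061_at, with a change of 1.50 ± 0.50 (unadjusted p = 0.00786 and adjusted p = 0.33 in limma), and Tpm3 1370339_at, with 0.34 ± 0.12 (unadjusted p = 0.0113 and adjusted p = 0.35 in limma). The size of the first is likewise limited by the control arrays not above the bacterial controls. It was the 1 probe set of the 28 whose Met-fed and control arrays did not overlap, against 2.89% of all probe sets. Changes were above 0 in 10 probe sets and below it in 18, with a median of -0.03 (0.0039 over all probe sets).

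For the bright probe sets the data set narrow limits. The 9 of log2 signal 11 or more changed by -0.12 to -0.0054 in Met-fed hearts, and the widest of their 95% intervals reached -0.33 and 0.18. For the brightest Tpm1 probe set the change was -0.07 ± 0.09 (interval -0.26 to 0.12), for Tnnt2 1367592_at -0.03 ± 0.10 (-0.24 to 0.18), for Tnni3 -0.04 ± 0.09 (-0.24 to 0.16) and for Actn2 -0.09 ± 0.09 (-0.28 to 0.11). Tpm1 1395794_at had 0.25 ± 0.14 (interval -0.06 to 0.55), and its difference from 1371241_x_at changed by 0.32 ± 0.18 (adjusted p = 0.524 in limma). The interval lay within a fold of 1.5 in either direction for 15 of the 28 probe sets and reached past it for 13. Without Met-fed replicate 1 the changes of Tpm1 1371241_x_at, Tnni3 and Actn2 became 0.0026, 0.029 and 0.017.

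L-NAME and Met-fed hearts were also set against each other, a comparison that shares the L-NAME arrays with that against control. Of the 28, 11 were higher and 10 lower in L-NAME hearts, with log2 changes of 0.63 to 2.19 and -0.25 to -0.69, against 25.4% and 14.9% of all probe sets. After quantile normalization 13 and 3 of the 28 were called, and the shares of all probe sets under it were not computed. Tpm4 1368838_at was higher by 2.19 ± 0.21 (adjusted p = 9.75e-07 in limma) and Tpm1 1395794_at by 1.08 ± 0.15 (adjusted p = 3.59e-05). Tpm1 1371241_x_at was lower by a log2 change of -0.47 ± 0.09, Tnni3 by one of -0.58 ± 0.10 and Actn2 by one of -0.63 ± 0.10. The order of the levels of these 3 was L-NAME, Met-fed, control from low to high, and the Met-fed and control means did not differ beyond their spread.

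Other genes of the thin filament and Z-disc were read by their brightest probe set. Of 39 listed, 36 were measured, without Actc1, Actb and Nebl, and in L-NAME hearts 9 were called higher, 12 lower and 15 neither (limma), with a median change of -0.13, against 28.7% higher and 17.0% lower over all probe sets. With quantile normalization the balance turned, to 12 higher and 7 lower, with no share of all probe sets computed under it. Of 5 skeletal and fetal troponins 2 were higher, led by Tnni1, the slow skeletal and fetal troponin I (1.59 ± 0.40, adjusted p = 0.00375), and 0 lower. After quantile normalization only 1 of the 5 was called higher, Tnni1 (1.17), while Tnnt1 went from 0.76 to 0.31 and was not called. In control hearts the mean log2 signal of Tnni1 was 3.57, under the median of 4.87 of all probe sets. Of 4 actins 3 were higher, led by smooth muscle actin Acta2 (1.82 ± 0.33, adjusted p = 0.000256). Of 14 genes of filament length and capping 3 were higher and 5 lower, with the largest changes in the tropomodulin Tmod2 (1.42 ± 0.17) and in nebulin, Neb (-1.27 ± 0.33). In this list 4 were higher and 3 lower after quantile normalization. Of 10 Z-disc genes 1 was higher, Pdlim3 (0.42 ± 0.12, but -0.00029 after array median centring), and 7 lower, with the largest fall in the actin-binding protein Xirp1 (-1.41 ± 0.17), but 4 were higher and 4 lower after quantile normalization. Of 3 other alpha-actinins 0 were called in limma, with 0 at an unadjusted p under 0.05. In Met-fed hearts 0 of the 36 were called in limma, with 8 at an unadjusted p under 0.05 and the smallest p of each list in Tnnt3 (0.44 ± 0.19), Acta1 (0.38 ± 0.14), Actn4 (0.13 ± 0.13), Tmod1 (-0.23 ± 0.07) and Pdlim5 (-0.17 ± 0.07).

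Markers of the cells in the samples were read in the same way. All 8 cardiomyocyte markers exceeded the bacterial controls on all arrays, with summed signals of 18600 to 21400 in L-NAME, 22570 to 30700 in Met-fed and 27450 to 30160 in control hearts. All 8 were called lower in L-NAME hearts as deposited, led by Myh6 (-0.77 ± 0.10), but 4 lower and 2 higher after quantile normalization. The 9 bright thin filament probe sets were all called lower as deposited, and 2 were called lower and 2 higher after quantile normalization. Of all probe sets with a mean log2 signal of 11 or more, 95.9% were below 0 as deposited. Of 6 smooth muscle markers, whose cells use Tpm1 and Tpm2, 1 was higher, Tagln (1.45 ± 0.31), and 3 lower, with the largest fall in Smtn (-1.49 ± 0.18), and their sums were 1416 to 2030 in L-NAME, 1621 to 2151 in Met-fed and 1768 to 2220 in control hearts. Of 8 fibroblast markers 2 were lower and 0 higher, but 2 lower and 2 higher (Col1a1 at 0.72 and Col3a1 at 0.71) after quantile normalization. Of 6 endothelial markers 4 were lower and 1 higher (Flt1 at 0.47 ± 0.17, not called in either other scaling), and of 5 leukocyte markers 4 were lower (3 and 2 lower in these lists after quantile normalization). Summed signals of the 3 atrial markers ranged widely within groups, from 713.3 to 2706 in L-NAME, 311.3 to 4451 in Met-fed and 425.7 to 1118 in control hearts, and 0 were called. Of 5 skeletal muscle markers, 2 exceeded the bacterial controls on all arrays and 1, Myh1, was lower. Of 2 red cell markers 1, Hbb, was lower (-0.27 ± 0.08, but 0.28 after quantile normalization). The part of these cell types in the changes of the thin filament genes was not tested.

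Within groups, the bright probe sets varied together over the arrays. As a description over the 13 arrays, which share their scaling, the deviations of Tpm1 1371241_x_at from its group means had Pearson correlations of 0.928, 0.959 and 0.712 with those of the next 3 Tpm1 probe sets, 1368724_a_at, 1370288_a_at and 1371240_at. They had 0.161 with 1395794_at and -0.0068 with 1370287_a_at. Among 9392 genes of at least median signal the genes most like Tpm1 were Cox6c (0.976), Slc25a4 (0.975), Atp5mc3 (0.97), Rps29 (0.967) and Lpl (0.965). Of the other thin filament genes Tnnt2 (0.921) and Actn2 (0.917) came at ranks 45 and 50, Tnnc1 (0.884) at 96, Tnni3 (0.866) at 121 and Tpm3 (0.788) at 233. Tpm4 (0.197) and Tpm2 (-0.328) stood at ranks 2509 and 6837, each gene being read by its brightest probe set.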

How the data were processed

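Total RNA of left ventricle was hybridized to Affymetrix rat arrays. The deposited values are linear signal intensities that the authors made with MAS5, as the submitters' processing notes say, without a version, and each array's mean, without its lowest and highest 2% of values, was 150.03 to 150.05. Genome build and probe positions are not given in the sources used here. Groups were taken from the labels, and gene names from the platform annotation, where 20826 probe sets had 1 symbol, 436 several and 9780 none. Of 31099 probe sets, 57 controls were left out. Log2 intensity without offset or filter was fitted with limma 3.58.1 in R 4.3.3 over all 13 arrays, 1 coefficient per group, with a variance trend. Benjamini-Hochberg adjustment ran over all probe sets, with a threshold of 0.05. Pairs of probe sets of a gene were fitted alike, without a trend. The scripts were tested on simulated data. Figures were drawn with matplotlib 3.10.9.

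All 8 genes are named with every probe set. Of the other lists, the called gene of largest rise and of largest fall in L-NAME hearts and that of smallest p in Met-fed hearts were taken, of which some are not printed. The members and lists were chosen with earlier results of these data known. Alternatives were a replicate block, leaving out each array, an equal-variance t-test on log2 signal, fits of the compared groups alone or without the variance trend, a median-signal filter, offsets of 16 and 50, array median centring and quantile normalization. The study's methods name a t-test with variance stabilization in GeneSpring, without settings, so the t-test run here is not the same.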

Additional observations from a re-analysis of the deposited data

Results flagged for a closer look

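A single array lay far from the rest of its group in 5 of the 84 groups of values tested (28 probe sets in 3 groups), and chance flags about 1 in 20. Tpm2 1392976_at had a log2 signal of 6.706 on L-NAME replicate 4, against 4.079 to 4.504 on the other L-NAME arrays. Tpm3 1370450_at had 0.561 on the same array, against 1.735 to 1.85 on the others. Tpm3 1371239_s_at had 5.855 on L-NAME replicate 1, against 5.989 to 6.014, and 4.676 on Met-fed replicate 1, against 4.348 to 4.369 on the other Met-fed arrays. In both groups the range of the others was narrow. Tnnc1 had 11.758 on control replicate 1, against 11.575 to 11.599 on the other control arrays.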

How the results depend on the processing

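Each array was left out in turn. In L-NAME against control hearts the count of probe sets called ranged from 23 to 24, that of pairs from 12 to 15, and in L-NAME against Met-fed hearts the count ranged from 19 to 22, while 0 probe sets and 0 pairs were called in Met-fed against control hearts. Changes that turned sign were of values not called, with ranges of -0.00538 to 0.32 for Tpm1 1370513_at, -0.64 to 0.24 for Tpm2 1392976_at and -0.0983 to 0.11 for Tpm3 1376929_at in L-NAME hearts. In Met-fed hearts the ranges were -0.13 to 0.00259 for Tpm1 1371241_x_at, -0.0993 to 0.0451 for Tpm1 1370288_a_at, -0.0149 to 0.27 for Tpm3 1389846_at, -0.30 to 0.0351 for Tpm3 1387918_at, -0.41 to 0.19 for Tpm3 1398303_s_at, -0.21 to 0.0728 for Tpm3 1376929_at, -0.22 to 0.24 for Tpm3 1371184_x_at, -0.00099 to 0.11 for Tpm4 1371653_at, -0.12 to 0.067 for Tnnt2 1367592_at, -0.13 to 0.035 for Tnni3 1386931_at, -0.0688 to 0.0655 for Tnnc1 1371354_at, -0.16 to 0.017 for Actn2, -0.36 to 0.0125 for Smtn and -0.0446 to 1.32 for Myl7.

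With quantile normalization, the changes in L-NAME against control hearts that turned sign were those of Tpm1 1371241_x_at (0.031), 1368724_a_at (0.016), 1370288_a_at (0.27) and 1370513_at (-0.24), Tpm3 1376929_at (-0.49), Tnnt2 1367592_at (0.043), Tnnc1 (0.13) and Hbb (0.28). In Met-fed hearts they were Tpm1 1371241_x_at (0.00999) and 1370288_a_at (0.031), Tpm3 1383986_at (0.031), Tnnt2 1367592_at (0.058), Tnni3 (0.027) and Tnnc1 (0.055). With array median centring Tpm1 1370513_at (-0.28), Tpm3 1376929_at (-0.40), Tpm4 1371653_at (-0.24) and Pdlim3 (-0.00029) turned in L-NAME hearts. Tpm2 1392976_at turned to 0.037 with an offset of 16 and to 0.057 with one of 50. Of all alternatives, quantile normalization changed the number of lower calls most, to 4 against 10. The cause was not tested.

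The filter at the median signal left 6 pairs called against 14, since it leaves fewer pairs, and it gives no value for 11 probe sets. Array median centring and a variance without trend were not run for the pairs, which a constant per array does not move and which were fitted without a trend.

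Replicate numbers did not pair the samples, with correlations of the deviations of same-numbered arrays of -0.211 to 0.236, of which 2 of 12 exceeded 0.1. With the replicate block 23, 0 and 21 probe sets were called in the 3 comparisons, and 12 and 0 pairs. Under the block the changes of Tpm1 1370513_at (-0.0054), Tpm2 1392976_at (0.19) and Tpm3 1376929_at (-0.012) turned in L-NAME hearts and that of Tpm3 1371184_x_at (0.084) in Met-fed hearts. The sizes of the changes of Tpm1 1370513_at, Tpm3 1370450_at and Tnnt2 1390061_at are limited by background, since their signals exceeded the bacterial controls on 9, 8 and 10 of the 13 arrays.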
